A study of Rattus norvegicus with 6 samples.

Results

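The genes described here encode the subunits of the proteasome, its activators and its dedicated assembly factors. They were chosen by name, as every row of the deposited count table whose symbol is Psm followed by a letter from a to g and a digit. This rule found 49 of the 32883 rows, each with its own Ensembl identifier. The rule itself used no measured value. The family was, however, picked for description with the difference between the pools already known, so counts of its members are given as a description and nothing about the family is inferred from them. RNA was recovered by pull-down from wild-type GH4C1 cells, a cultured line from a rat pituitary tumour that makes growth hormone and prolactin. All cells were treated with psoralen, which crosslinks base-paired strands, and the stated target of the pull-down was the long noncoding RNA Neat1, the scaffold of nuclear paraspeckles. Recovery used oligo pool A in 3 libraries and oligo pool B in 3 others, and nothing else in the labels separates the groups. The sequences in either pool are not given in the sources used here, nor is it stated whether a pool served as a control. Both groups come from 1 cell line, and separate cultures are not mentioned, so p-values measure only the spread between these libraries, which may be technical.

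The proteasome degrades proteins that carry ubiquitin chains. Its barrel-shaped core consists of outer rings of alpha subunits and inner rings of beta subunits, some of which carry the proteolytic sites. A regulatory particle caps the core. Its base holds a ring of ATPases that unfold the substrate, together with scaffold and ubiquitin-binding subunits, and its lid removes the ubiquitin. The subunits are made in fixed proportions, and transcription of their genes is raised together by the factor Nfe2l1 when proteasome activity is short.

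Total counts per library were between 1826390 and 3685899, and the proteasome genes received between 3964 and 9904 of them. At least 10 counts were reached in all 6 libraries by 41 members. Levels are in CPM, which relates a gene's count to all counts of its library, and a count of 0 allows up to 3 counts, or between 0.814 and 1.64 CPM. Such limits cover counting error only. Gene lengths were not used, so levels of different genes are not compared. Input RNA was not analysed here, and values are of recovered RNA. In such bulk libraries, fewer cells with a transcript and less of it per cell cannot be told apart. The lineage markers Prl and Gh1 had 386 to 759 CPM and 149 to 187 CPM, and Tshb, Fshb, Ghrhr, Kdr and Sox9 were at 0 in every library. Markers of other lineages were not all absent. Lhb had 11.9 ± 3.6 CPM with pool A and 41.96 ± 2.69 CPM with pool B, and Sox2 46.3 ± 5.0 and 23.3 ± 5.5 CPM (SD, n = 3). Dcn and Cd68 lay between 8.18 and 23.0 CPM, and Ptprc reached 5.65 CPM in pool A and was at 0 in pool B. Prl was 1.78-fold higher with pool A, and Chgb, a secretory granule protein, 7.68-fold higher with pool B (edgeR adjusted p 1.26e-05 and 4.86e-14). The part of these marker differences in the results was not tested.

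Most of the proteasome genes that differed were recovered more with pool A. Differences were tested with edgeR's quasi-likelihood test over all 11582 genes that passed its expression filter, with Benjamini-Hochberg adjustment over all of them and a threshold of 0.05. Of the 49 members, 45 passed the filter. Psma8, Psmb11, Psmd10 and Psmg4 did not. Of the 45, 15 passed with more recovery by pool A and 3 with more by pool B, and 27 did not pass the threshold. Over all tested genes, 40.6% passed, of which pool A gave the higher value for 18.6% of the tested genes and pool B for 22.0%. A change of at least 2-fold was found for 11 of the former and 3 of the latter, where 11.1% and 14.2% of all tested genes did so. For 24 of the 45 the 3 libraries of one pool all lay above those of the other, beside 49.1% of all tested genes, in CPM and so on total counts. Of the 24, pool A was above for 16 and pool B for 8, the latter being Psmb3, Psmb6, Psmc4, Psmc5, Psmc6, Psmd2, Psmd4 and Psme2. The median log2 fold change of the tested members, pool A over pool B, was 0.39, and that of all tested genes was 0.02.

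The direction split of the members depended on the scaling. TMM factors, used throughout, gave 15 and 3 calls (83.3% higher with pool A), total counts alone gave 12 and 5 (70.6%), and upper-quartile factors gave 17 and 3 (85.0%). The split over all tested genes moved the same way, with 45.8%, 36.9% and 52.8% of the calls higher with pool A. With total counts alone Psma1, Psma3 and Psmb2 no longer passed (edgeR adjusted p 0.0695, 0.0929 and 0.0607). The median of the members was 0.26 under total counts and 0.50 under upper-quartile scaling, while that of all tested genes was -0.13 and 0.12. The signs of Psma2, Psmd2, Psmd5, Psmd11, Psmd14 and Psme3, none of which passed the threshold, turned under at least 1 scaling. CPM values are on total counts unless another basis is named, whereas log2 fold changes use TMM factors. A printed log2 value can therefore differ from the log2 ratio of the printed CPM.

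**Figure D1:**
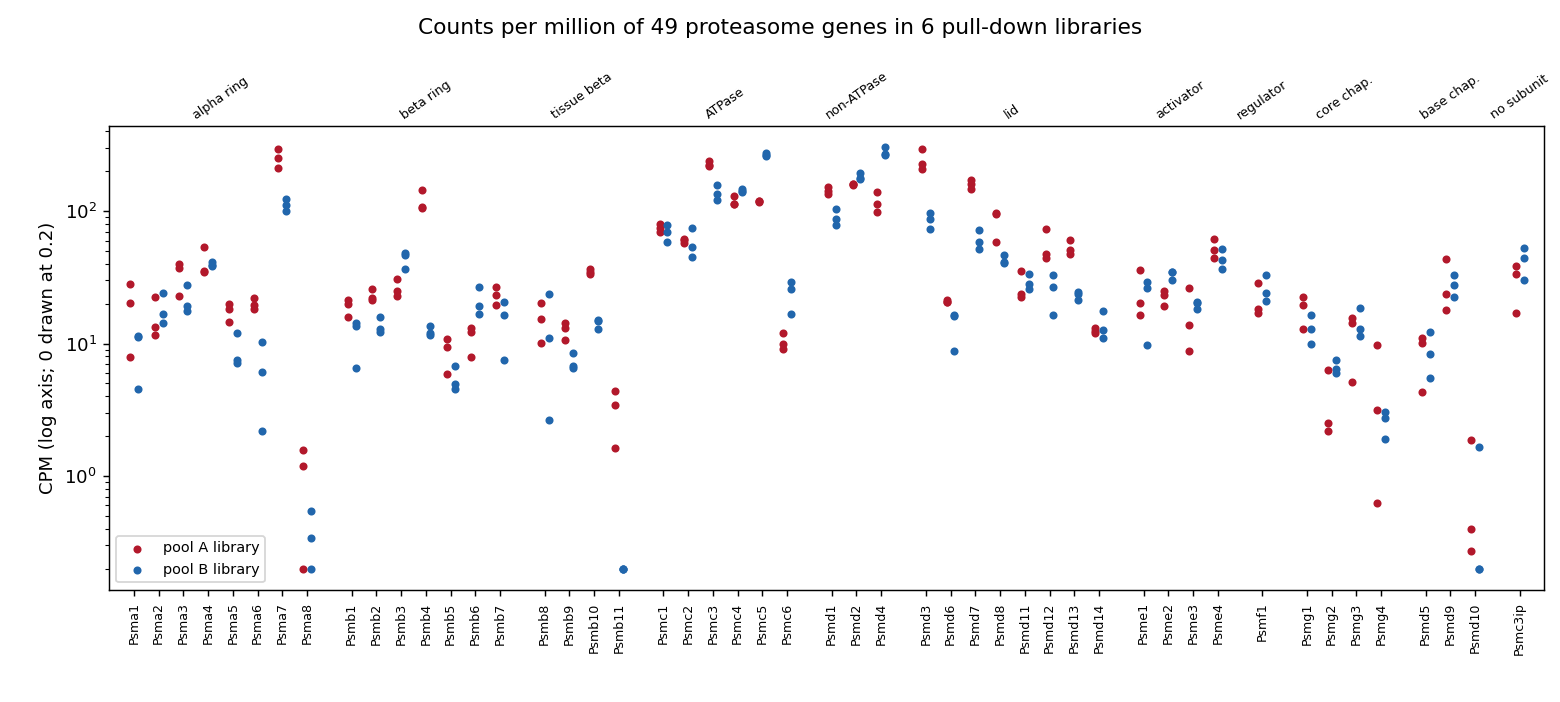
Recovery of each of the 49 proteasome genes, in CPM on a log axis, with a point per library (red, pool A; blue, pool B) and values of 0 drawn at 0.2. Genes are ordered by their place in the complex. Psmb4 had 106 to 144 CPM with pool A and 11.6 to 13.6 CPM with pool B, whereas the points of Psmd4, Psmc5 and Psmc6 lie higher with pool B.

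The alpha ring forms the gate of the core, and 5 of its 7 tested genes were higher with pool A, with a median log2 fold change of 1.15 over the 7. Psma7 had 212, 297 and 251 CPM in pool A replicates 1, 2 and 3, and 112, 99.7 and 124 CPM in pool B replicates 1, 2 and 3. All pool A libraries lay above all pool B libraries. In log2 terms the pools differed by 1.32 ± 0.16 (SE; edgeR adjusted p 1e-07). Psma6 had 18.2, 22.2 and 19.5 CPM with pool A and 10.2, 2.19 and 6.05 CPM with pool B. The ranges were separate, and the counts behind the pool B values were 30, 4 and 16. The log2 ratio of A to B was 1.77 ± 0.43 (SE), at an edgeR adjusted p of 0.00159. Psma5 had 18.2, 19.8 and 14.4 CPM with pool A and 7.50, 12.1 and 7.19 CPM with pool B, again without overlap. Its log2 fold change, scaled by TMM, was 1.15 ± 0.39 (SE; edgeR adjusted p 0.0208). That call was lost when pool A replicate 1 or 2, or pool B replicate 1 or 3, was omitted (adjusted p 0.0635, 0.0824, 0.0607 and 0.0733), and in 5 of its 16 alternatives in all, within a range of 0.00969 to 0.101.

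Other alpha subunits were less clear. Psma1 had 7.87, 28.1 and 20.4 CPM with pool A and 11.3, 11.5 and 4.54 CPM with pool B, so pool A replicate 1 lay among the pool B values. The log2 value, 1.19 ± 0.45 (SE), came with an edgeR adjusted p of 0.0365, which became 0.293 with pool A replicate 2 left out, 0.0701 with pool A replicate 3 left out and 0.168 with pool B replicate 3 left out. Over its 16 alternatives it ranged from 0.00566 to 0.293, and the call was lost in 8. Psma3 had 23.1, 37.2 and 39.8 CPM with pool A and 27.6, 17.5 and 19.3 CPM with pool B, with overlapping ranges. The log2 value, 0.76 ± 0.28 (SE), came with an edgeR adjusted p of 0.0337. That call was lost in 9 of 16 alternatives, among them those that left out pool A replicate 2 or 3 or pool B replicate 2 or 3 (adjusted p 0.131, 0.112, 0.113 and 0.107, in a range of 0.013 to 0.298). Psma2 and Psma4 had log2 fold changes of -0.05 ± 0.36 and 0.21 ± 0.23 (SE) and did not pass. Psma8, an alpha subunit known from testis, had at most 5 counts in a library and was not tested.

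Among the 7 beta subunits of the common core, Psmb4 differed most, and its difference was also the largest among the 45 tested members. Psmb4 is a structural subunit of the beta ring without a proteolytic site. Its counts were 530, 270 and 338 with pool A and 34, 22 and 36 with pool B, or 144, 107 and 106 CPM against 11.6, 12.1 and 13.6 CPM. The lowest pool A library held several times the highest pool B library. The log2 fold change was 3.40 ± 0.22 (SE), a 10.6-fold difference, with an edgeR adjusted p of 8.51e-13. Only 0.622% of the tested genes had a fold change further towards pool A. The adjusted p was at most 6.96e-10 over its 16 alternatives.

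Psmb2, which is also structural, had 22.0, 21.4 and 26.0 CPM with pool A and 12.3, 15.9 and 12.9 CPM with pool B. The ranges were separate. Psmb2 had a TMM-scaled log2 fold change of 0.91 ± 0.32 (SE; edgeR adjusted p 0.0222). It no longer passed when pool A replicate 3, or pool B replicate 1 or 3, was omitted (adjusted p 0.0568, 0.0594 and 0.0589), and was lost in 5 of 16 alternatives, in a range of 0.011 to 0.176. None of the 3 subunits with proteolytic sites passed the threshold under the settings used throughout. Psmb5, the chymotrypsin-like subunit, differed by 0.82 ± 0.52 on the log2 scale (SE), and Psmb7, the trypsin-like subunit, by 0.79 ± 0.35 (SE). Psmb6, the caspase-like subunit, had a value of -0.77 ± 0.36 (SE), with 7.87, 13.1 and 12.2 CPM for pool A and 16.7, 26.8 and 19.3 CPM for pool B. Its pool B values all exceeded its pool A values, and the edgeR adjusted p was 0.0929. With total counts alone Psmb6 passed (0.0464, in a range of 0.0464 to 0.341). Psmb7, at 0.0718, passed with upper-quartile factors (0.0415) and when pool B replicate 1 was omitted (log2 value 1.14, adjusted p 0.0246), while its log2 value was 0.47 when pool B replicate 3 was omitted (0.321). The structural subunit Psmb3 was also recovered at higher CPM in all pool B libraries (36.7 to 48.4 CPM, against 23.1 to 30.9 CPM). Its log2 value was -0.60 ± 0.24 (SE; edgeR adjusted p 0.0508). The adjusted p passed with total counts alone (0.0155), with limma-voom (0.0335), and when pool A replicate 2 (0.0424) or pool B replicate 2 (0.0333) was omitted, in a range of 0.0155 to 0.502. Psmb1 stood at 0.84 ± 0.37 on the log2 scale (SE; edgeR adjusted p 0.0711), and passed with upper-quartile factors (0.0417) and when pool A replicate 3 was omitted (0.0481), in a range of 0.0417 to 0.279.

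Beta subunits of the immunoproteasome replace the proteolytic ones in immune cells and after interferon. Of these, Psmb10 was higher with pool A, with 34.5, 33.6 and 36.4 CPM against 12.95, 14.8 and 15.1 CPM. Libraries of a pool lay close together and the pools were well apart. The log2 ratio of A to B was 1.43 ± 0.28 (SE), at an edgeR adjusted p of 0.000118. Psmb9 had 10.6, 14.2 and 13.2 CPM with pool A and 8.52, 6.57 and 6.81 CPM with pool B, and its log2 fold change of 0.92 ± 0.44 (SE) did not pass (edgeR adjusted p 0.0962). Psmb9 passed where at least 10 counts were required in every library (0.0414, in a range of 0.0414 to 0.272). Psmb8 varied widely within pool B, at 23.5, 10.95 and 2.65 CPM, against 20.3, 15.4 and 10.04 CPM in pool A. Its log2 value was 0.45 ± 0.49 (SE) and did not pass. When pool B replicate 1 was left out it was 1.40 (edgeR adjusted p 0.0473), and when pool B replicate 3 was left out it was -0.04 (0.956), the ends of its range over the alternatives. Psmb11 belongs to the thymoproteasome of thymic epithelium. It had 6, 11 and 11 counts with pool A and 0 in each pool B library. Against the floor of 3 counts per pool B library, its mean of 3.14 CPM in pool A was at least 2.48-fold higher. It had too few counts for the filter, and in the fit without a filter its edgeR adjusted p was 0.00643.

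The base of the regulatory particle was divided. Of its 6 ATPase genes, Psmc3 was higher with pool A, Psmc5 and Psmc6 were higher with pool B, and Psmc1, Psmc2 and Psmc4 did not pass. Psmc3 had 239, 224 and 220 CPM with pool A and 122, 159 and 135 CPM with pool B, without overlap. Scaled by TMM, its log2 fold change was 0.87 ± 0.15 (SE; edgeR adjusted p 1.97e-05). Psmc5 had 119, 120 and 116 CPM with pool A and 261, 266 and 275 CPM with pool B. Its libraries were close to each other within either pool, and the difference was far larger than that spread. Its TMM-scaled log2 fold change was -1.03 ± 0.14 (SE; edgeR adjusted p 7.66e-07). Psmc6 had 11.9, 9.89 and 9.10 CPM with pool A and 25.9, 29.0 and 16.7 CPM with pool B. These ranges were separate as well. Its log2 value was -1.05 ± 0.35 (SE; edgeR adjusted p 0.0178) on 25 to 76 counts per library. The call was lost when pool A replicate 2 or 3, or pool B replicate 1 or 2, was omitted (adjusted p 0.0509, 0.0659, 0.0583 and 0.0724), and in 5 of 16 alternatives in all, in a range of 0.00729 to 0.115. The other 3 ATPase genes had log2 fold changes between -0.11 (Psmc4) and 0.27 (Psmc1). The median of the 6 was 0.04, and it was -0.11 with total counts alone.

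The non-ATPase subunits of the base that the name rule matched were divided in the same way. Psmd4, which binds ubiquitin chains, had 112, 97.7 and 141 CPM with pool A and 269, 267 and 303 CPM with pool B. The lowest pool B library exceeded the highest pool A library. The log2 ratio of A to B was -1.12 ± 0.14 (SE), at an edgeR adjusted p of 3.38e-07. Psmd1, a scaffold of the base, had 143, 153 and 136 CPM with pool A and 103, 87.1 and 77.9 CPM with pool B. Here pool A was higher in every library, at 0.83 ± 0.16 on the log2 scale (SE; edgeR adjusted p 0.00013). Psmd2, the other scaffold, had a log2 fold change of -0.06 ± 0.14 (SE). Its pool A values, 159.5, 159.4 and 157.2 CPM, had the smallest coefficient of variation between pool A libraries of any member, at 0.8%. Its pool B values were 193.6, 175.2 and 178.6 CPM. On total counts these all lay above pool A, and the sign of the log2 value turned with the scaling.

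Of the 8 lid genes that the name rule matched, 5 were higher with pool A, all by more than 2-fold. The median over the 8 was 1.17, and lid subunits with other names are not part of it. Psmd3, a structural subunit, had 293, 227 and 207 CPM with pool A and 86.6, 96.4 and 73.0 CPM with pool B. Scaled by TMM, the log2 fold change was 1.66 ± 0.17 (SE; edgeR adjusted p 3.71e-09). Psmd7, the partner of the deubiquitinase Psmd14, had 160, 148 and 173 CPM with pool A and 71.6, 58.6 and 51.5 CPM with pool B. In both genes the pools were separated by more than the range within a pool. Psmd7 stood at 1.54 ± 0.16 on the log2 scale (SE; edgeR adjusted p 1.19e-08). Psmd13 had 60.2, 47.9 and 51.1 CPM with pool A and 21.5, 24.6 and 23.8 CPM with pool B, at 1.34 ± 0.23 on the log2 scale (SE; edgeR adjusted p 2.86e-05). Psmd12 followed with 73.3, 47.5 and 43.9 CPM against 33.1, 16.4 and 26.9 CPM, and Psmd8 with 96.9, 58.5 and 95.1 CPM against 46.7, 40.5 and 41.6 CPM. All of these are structural lid subunits, and none had overlapping ranges. The log2 fold changes were 1.24 ± 0.27 (SE) for Psmd12 and 1.10 ± 0.20 (SE) for Psmd8, with edgeR adjusted p-values of 0.000411 and 6.42e-05. Psmd14 itself, which cuts the ubiquitin chain from the substrate, had 12.5, 13.1 and 11.9 CPM with pool A and 17.7, 12.6 and 10.97 CPM with pool B. The log2 value was 0.00 ± 0.37 (SE). Whether the fold changes of the deubiquitinase and its partner differ was not tested. Psmd11 and Psmd6 had values of 0.02 ± 0.26 and 0.72 ± 0.34 (SE), with edgeR adjusted p-values of 0.956 and 0.0929.

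**Figure D2:**
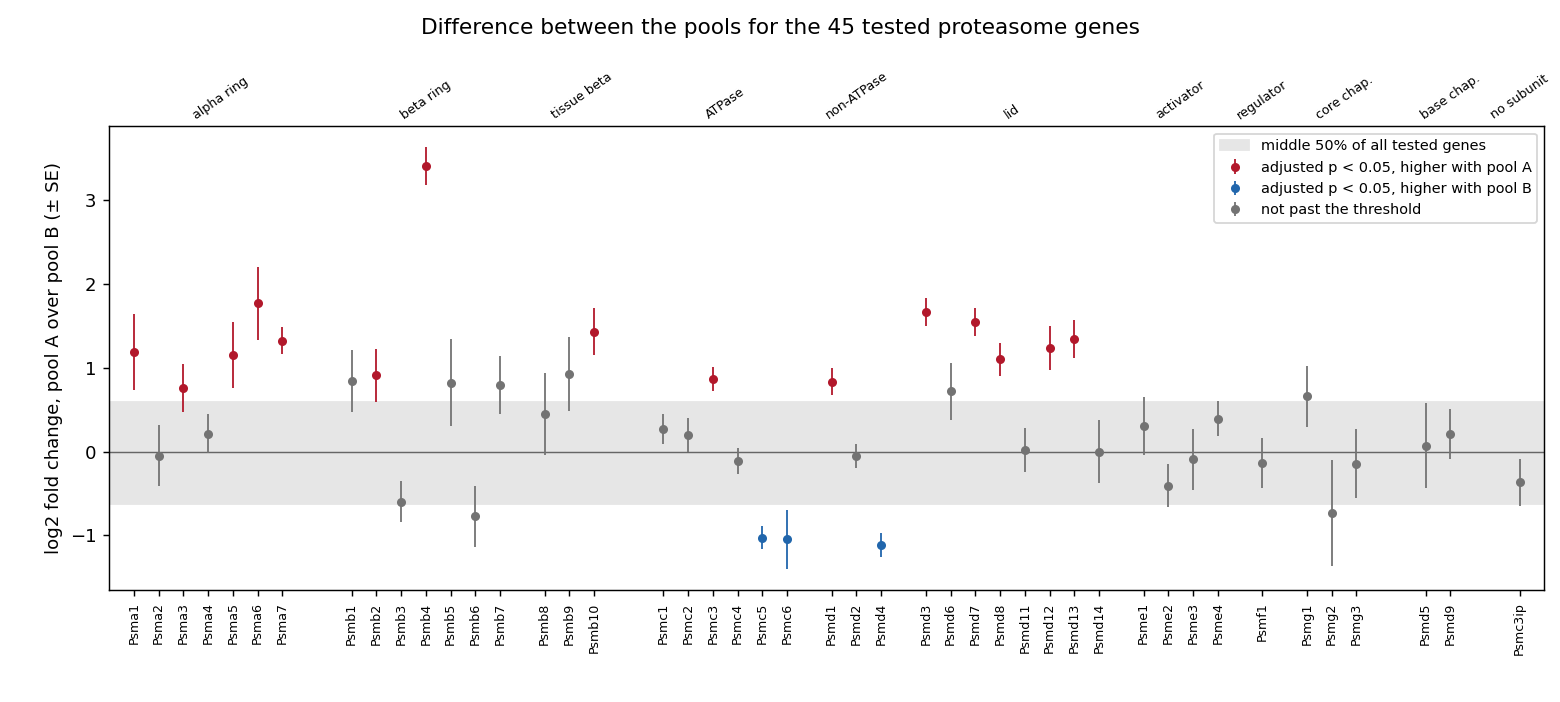
Log2 fold change of pool A over pool B, with its SE, for the 45 tested proteasome genes in the order of the complex. Red and blue mark genes past the threshold (15 and 3 genes), grey those that did not pass, and the band spans the middle part of all tested genes, from -0.63 to 0.59.

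No activator, regulator or assembly chaperone passed the threshold. The tested members of these classes were Psme1 to Psme4, Psmf1, Psmg1 to Psmg3, Psmd5 and Psmd9. The activators open the gate of the core in place of the regulatory particle. The interferon-induced pair Psme1 and Psme2 had log2 fold changes of 0.31 ± 0.35 and -0.41 ± 0.26 (SE). The nuclear activator Psme3 and the large activator Psme4 had -0.09 ± 0.37 and 0.39 ± 0.21 (SE). Psme4 had 51.3, 44.3 and 61.8 CPM with pool A and 51.5, 36.7 and 43.1 CPM with pool B, with overlap. Psme2 was the only activator without overlap, at 19.3, 23.3 and 25.1 CPM with pool A and 34.4, 34.5 and 30.3 CPM with pool B. Its edgeR adjusted p was 0.222. Psmf1, a regulator that binds the core, had 18.2, 17.01 and 28.9 CPM with pool A and 21.1, 32.9 and 24.2 CPM with pool B. These overlapped, and the log2 value was -0.14 ± 0.29 (SE). Of the factors that pair up to assemble the alpha ring, Psmg1 had 0.66 ± 0.37 and Psmg2 -0.73 ± 0.63 (SE), and Psmg3 had -0.14 ± 0.41 (SE). Psmg1 had 19.5, 22.5 and 12.9 CPM with pool A and 9.88, 16.4 and 12.9 CPM with pool B. Psmg2 had 2.17, 6.33 and 2.51 CPM and 7.50, 6.02 and 6.43 CPM, and both genes overlapped between the pools. The log2 value of Psmg2 was -1.36 when pool A replicate 2 was omitted and -0.45 when pool A replicate 1 was omitted. Psmg4 had 36, 8 and 2 counts with pool A, so its level there rests on replicate 1. The base assembly chaperones Psmd5 and Psmd9 had 0.07 ± 0.51 and 0.20 ± 0.30 (SE), and Psmd10 had at most 6 counts in a library. Psmd9 had 43.1, 17.8 and 23.8 CPM with pool A, where replicate 1 was highest, and 22.5, 32.9 and 27.6 CPM with pool B. Psmc3ip matches the rule by name but encodes a factor of meiotic recombination. It had 17.1, 33.6 and 38.3 CPM with pool A and 29.99, 52.6 and 44.3 CPM with pool B, with overlap, and a log2 value of -0.37 ± 0.28 (SE).

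Over the 27 tested members that did not pass, log2 fold changes lay between -0.77 (Psmb6) and 0.92 (Psmb9). In these, 6 had an adjusted p under 0.1. The coefficient of variation between libraries had a median of 12.1% in pool A and 10.9% in pool B over the 17 tested members with a mean of at least 100 counts. Over the 28 with fewer counts it was 26.4% and 25.4%. The fold change had little relation to abundance across the 45 members (Spearman rho 0.064 over genes, which are not independent, in the same 6 libraries).

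Ratios of counts within a library do not depend on how libraries are scaled, and those given here were chosen after their values were seen. They describe how the mixture changed, not which RNA was more abundant. Psmc5 had 0.500, 0.535 and 0.530 counts per count of Psmc3, its fellow ATPase, in pool A and 2.13, 1.68 and 2.03 in pool B. Psmd4 had 0.82 ± 0.20 (SD, n = 3) counts per count of Psmd1 in pool A and 3.18 ± 0.65 (SD, n = 3) in pool B. Both ratios of base subunits were thus higher in every pool B library. Psmb4 had 4.64 ± 1.43 (SD, n = 3) counts per count of Psmb3 in pool A and 0.287 ± 0.039 (SD, n = 3) in pool B. Summed over the lid genes, there were 1.17, 0.968 and 1.07 counts per count of the ATPase genes in pool A and 0.468, 0.395 and 0.40 in pool B. The alpha ring gave 0.659 ± 0.108 and 0.309 ± 0.019 (SD, n = 3) on the same basis. In each of these 5 ratios the pools did not overlap.

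**Figure D3:**
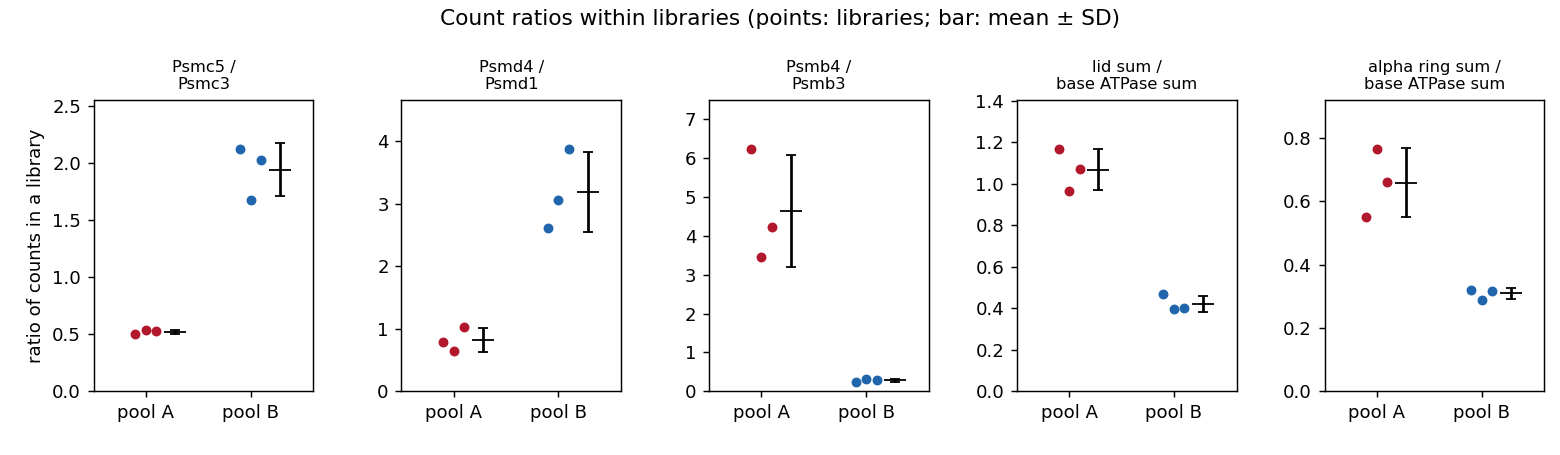
Ratios of raw counts within a library for 3 pairs of proteasome genes and 2 pairs of gene classes, with a point per library and the mean ± SD beside it, on axes that start at 0. Psmc5 over Psmc3 was 0.522 ± 0.019 (SD, n = 3) for pool A, against 1.95 ± 0.24 (SD, n = 3) for pool B.

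The summed recovery of the 49 genes was 2623 ± 58 CPM (SD, n = 3) for pool A, against 2177 ± 67 CPM (SD, n = 3) with pool B. By class, the lid summed to 740, 585 and 638 CPM with pool A and 327, 284 and 272 CPM with pool B. Without Psmd3, the lid sums were 412 ± 47 and 209 ± 28 CPM (SD, n = 3). The alpha ring summed to 401 ± 59 and 216 ± 9 CPM (SD, n = 3), and without Psma7 to 148 ± 17 and 104 ± 10 CPM (SD, n = 3). The beta ring summed to 230 ± 15 and 123 ± 5 CPM (SD, n = 3), a difference carried by Psmb4. The other 6 beta genes summed to 111.5 ± 8.2 and 110.2 ± 5.2 CPM (SD, n = 3), with overlapping ranges. The ATPase genes summed to 610 ± 18 and 699 ± 18 CPM (SD, n = 3). These did not overlap on total counts, but with TMM library sizes the ATPase sums were 671.5, 669.4 and 586.7 CPM for pool A and 665.4, 672.7 and 654.3 CPM for pool B, with overlap. The non-ATPase genes of the base summed to 419 ± 13 and 551 ± 20 CPM (SD, n = 3). They were lower in all pool A libraries with TMM library sizes too (441 ± 13 and 524 ± 24 CPM; SD, n = 3), and when counts around the gene Rn5-8s were excluded from the totals (515 ± 16 and 601 ± 37 CPM; SD, n = 3). Each base sum mixes genes of opposite direction. Mean CPM with pool A and pool B was 116.8 and 279.5 for Psmd4, 143.8 and 89.4 for Psmd1, and 158.7 and 182.5 for Psmd2. Of the ATPase genes, Psmc5 had 118.5 and 267.4 CPM and Psmc3 227.4 and 138.9 CPM. All pool B libraries were higher for 3 of the 6 and all pool A libraries for 1. Base sums without Psmd4 or Psmc5 were not made, so their direction may rest on these genes. The sums without single genes and the class sums on other library sizes were added after the values were seen. Clone-named rows around the ribosomal RNA gene Rn5-8s took 13.3% to 22.9% of the total with pool A and 6.07% to 11.1% with pool B, and with these rows left out the sums over all 49 genes were 3226 and 2374 CPM. With TMM library sizes they were 2762 and 2069 CPM. The higher sum over the 49 genes with pool A was therefore present on each basis, while its size was not fixed.

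In the RefSeq annotation of the rat assembly GRCr8, which may differ from the build of the count table, the members lie on 18 chromosomes. They form no single cluster. Psmb8 and Psmb9 flank Tap1, and Psme1 and Psme2 flank Emc9, in the row order of the count table. Psmb5 and Psmb11 likewise flank the clone-named row AC109100.1. Psmb4 and Psmd4, which differed in opposite directions, are both on chromosome 2. RefSeq lists 52 pseudogenes and like-genes named after 19 of the members, among them 10 for Psmb3, 5 for Psma6 and 1 for Psmb4. Of the 18 called members, 9 have such copies and 9 do not. The latter are Psma1, Psmb2, Psmb10, Psmc3, Psmc5, Psmd3, Psmd4, Psmd7 and Psmd13. How reads that match several copies were counted is not given in the sources used here, so the values of the others are uncertain to that extent. Copies were found by symbol only. Copies under other names were not looked for, so the members without a named copy may share this uncertainty. Another RefSeq gene overlaps 6 of the called members (Psma1, Psmb2, Psmc5, Psmc6, Psmd1 and Psmd8), and whether counting used the strand is not stated.

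Partners of the proteasome were taken from a list of related genes, of which 36 rows (35 names) were found and 35 tested. In this list 10 rows (28.6%) passed as higher with pool A and 6 (17.1%) as higher with B, beside 18.6% and 22.0% of all tested genes. Both directions together made up 45.7%, near the 40.6% of all tested genes, and the median log2 fold change was 0.13. Pomp and Vcp had the largest differences in the list, with nearly equal log2 values whose order turned between alternatives. Pomp, the chaperone that completes core assembly, had 46.4, 35.6 and 42.4 CPM in pool A and 2.39, 5.48 and 7.57 CPM in pool B. Its pool B values rest on 7 to 20 counts. Its TMM-scaled log2 fold change was 3.17 ± 0.35 (SE; edgeR adjusted p 2.59e-08). Vcp, the ATPase that extracts ubiquitinated proteins for degradation, had 742, 695 and 697 CPM with pool A and 93.1, 80.5 and 90.04 CPM with pool B. The pools were far apart, at 3.16 ± 0.14 on the log2 scale (SE; edgeR adjusted p 6.04e-16). The ubiquitin ligase Ube3a had a log2 fold change of 0.97 ± 0.24 (SE), with 39.2 to 45.9 CPM with pool A and 19.3 to 27.95 CPM with pool B. The proteasome-bound deubiquitinase Usp14 had 0.87 ± 0.35 (SE), with an edgeR adjusted p of 0.0473 that was 0.056 to 0.142 without pool A replicate 1, 2 or 3 or pool B replicate 2 or 3. Its call was lost in 11 of 16 alternatives, in a range of 0.0225 to 0.237.

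Of the genes around the transcription factor of the proteasome genes, Nfe2l1 and Ddi2 were higher with pool B, and Ngly1 and Vcp with pool A. These are single genes of the list, and nothing was tested for them as a group. Nfe2l1 is made at the endoplasmic reticulum, extracted with the help of Vcp, freed of its glycans by Ngly1 and cleaved by the protease Ddi2 before it enters the nucleus. Nfe2l1 had 214, 219.5 and 239 CPM with pool A and 746, 798 and 825 CPM with pool B. The log2 value was -1.67 ± 0.13 (SE; edgeR adjusted p 2.45e-11). Ddi2 had 81.4, 85.8 and 96.9 CPM with pool A and 276, 280 and 313 CPM with pool B. It was likewise higher in every pool B library, at -1.58 ± 0.14 on the log2 scale (SE; edgeR adjusted p 6.18e-10). Ngly1 had 36.1, 37.6 and 44.9 CPM with pool A and 3.41, 6.02 and 7.95 CPM with pool B. The log2 ratio of A to B was 2.92 ± 0.33 (SE), at an edgeR adjusted p of 4.62e-08. The related factor Nfe2l2 did not pass (log2 fold change 0.37 ± 0.24, SE). Of the other related genes higher with pool B, Faf2, which recruits Vcp to the endoplasmic reticulum, had a log2 value of -1.003 ± 0.196 (SE). Txnl1 and Faf1 had -0.69 ± 0.26 and -0.64 ± 0.25 (SE). Their edgeR adjusted p-values of 0.0374 and 0.0448 rose above 0.05 without any 1 of several libraries, to between 0.0755 and 0.129 for Txnl1 (pool A replicate 1 or 3, pool B replicate 1 or 3) and between 0.063 and 0.171 for Faf1 (each library except pool B replicate 2). The calls were lost in 9 and 12 of 16 alternatives, in ranges of 0.0128 to 0.37 and 0.0169 to 0.436. Nfe2l2 was named after its values were seen.

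**Figure D4:**
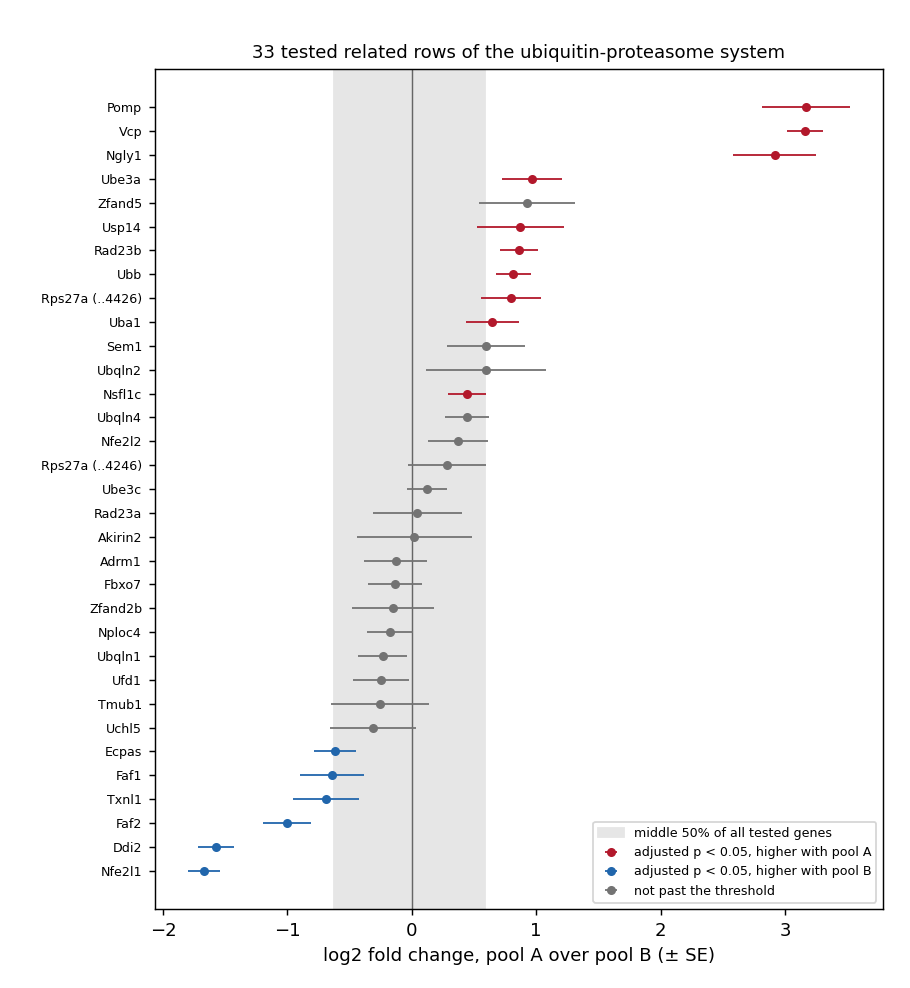
Log2 fold change of pool A over pool B, with its SE, for 33 of the 35 tested rows of genes that work with the proteasome, sorted by value (red, higher with pool A past the threshold; blue, higher with pool B; grey, not past it). Pomp, Vcp and Ngly1 stand apart at 2.92 to 3.17, and Nfe2l1 and Ddi2 lie lowest, at -1.67 and -1.58.

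Nfe2l1 binds antioxidant response elements, and the stretches below show where its core motif stands before the start of the 3 called members that carry it. The letters searched were TGACNNNGC on both strands, within the 250 bases before the gene start in RefSeq's GRCr8 promoters, which hold 44 of the 49 members. The match is in capitals, and each stretch is written in the direction of the gene. A stretch on the plus strand of chr6:95219697-95219748 belongs to Psma3, one on the plus strand of chr5:144254950-144255038 to Psmb2, and one on the plus strand of chr9:94157766-94157854 to Psmd1.
Psma3: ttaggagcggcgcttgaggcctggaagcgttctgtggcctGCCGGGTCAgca
Psmb2: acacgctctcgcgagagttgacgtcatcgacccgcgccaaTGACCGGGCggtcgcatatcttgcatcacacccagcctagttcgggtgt
Psmd1: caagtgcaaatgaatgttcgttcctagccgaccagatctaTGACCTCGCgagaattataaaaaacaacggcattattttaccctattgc

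The motif of Psma3 reads on the opposite strand and begins 12 bases before the start, that of Psmb2 lies 68 bases before it and that of Psmd1 165 bases before it. These 3 genes had log2 fold changes of 0.76, 0.91 and 0.83, all higher with pool A. The motif was also found before Psmb5, Psmb6, Psmd9 and Psme4, which did not pass the threshold and had log2 values of 0.82, -0.77, 0.20 and 0.39. In all, 7 of 44 members (15.9%) held it, beside 11.0% of the 27457 genes in the promoter table. A CCAAT box, the letters CCAAT on either strand, was found for 21 of the 44 (47.7%), beside 36.1% of all genes. It stood before 7 of the 13 members with a promoter in the table that were higher with pool A, before 1 of the 3 higher with pool B and before 12 of the 25 that did not pass. A match is a description of these letters. The pull-down measured RNA, and promoter activity was not measured.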

How the data were processed

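The authors deposited 1 table of raw counts per rat gene with Ensembl identifiers. Per the submitters' processing notes STAR and featureCounts were used. Their versions, the genome build and the annotation are not given in the sources used here. The table's mean count per pool, a signal column made by the authors from the 3 libraries of a pool, was not used. The 6 columns carry the sample titles.

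Counts were tested across all genes with edgeR 4.0.16 in R 4.3.3: TMM factors, filterByExpr by pool, a quasi-likelihood fit of the 6 libraries by pool, and Benjamini-Hochberg adjustment over all tested genes. The SE is the size of the log2 fold change over the square root of F. The script was tested on simulated data. Alternatives used limma 3.58.1 and DESeq2 1.42.0. Every member is accounted for: those past the threshold with at least a 2-fold change, and in each class the member with the largest change (or the lowest adjusted p where none passed), are given by library. The members and lists were chosen with earlier results of these data known. Promoters, symbols and neighbours came from RefSeq tables for GRCr8. A few genes are not reported here.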

Additional observations from a re-analysis of the deposited data

How the results depend on the processing

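Of 716 refits of single proteasome genes, 672 kept their side of the threshold, 33 lost the call and 11 gained it. For the related genes these numbers were 502 of 559, 45 and 12. No called gene changed direction. The sign turned in 33 refits of 12 proteasome genes and in 13 refits of 6 related genes, none of which had passed the threshold. The proteasome genes were Psma2, Psma4, Psmb8, Psmd2, Psmd5, Psmd9, Psmd11, Psmd14, Psme1, Psme3, Psmf1 and Psmg3. Of the 18 called members, 11 passed in all 17 fits: Psma7, Psmb4, Psmb10, Psmc3, Psmc5, Psmd3, Psmd4, Psmd7, Psmd8, Psmd12 and Psmd13. Psma6 lost its call in none of its 15 alternatives, and was left out where at least 10 counts were required in every library. Members higher with pool B numbered 5 in place of 3 with total counts alone, where Psmb3 and Psmb6 joined them. The test against a 1.5-fold change, stricter by construction, left 1156 and 1521 genes over the whole table, 10 and 2 members, and 4 and 3 related genes. The median log2 fold change of the members was 0.66 with no filter and 0.58 with the DESeq2 test, which include 49 and 48 members in place of 45. Summed CPM was 2762 (pool A) and 2069 (pool B) with TMM library sizes, and 3226 and 2374 when counts around Rn5-8s were excluded from the totals. Leaving out a library gave 12 to 15 members higher with pool A, 2 to 3 higher with pool B and a median of 0.30 to 0.50. Over all genes it gave 1856 to 2046 and 2194 to 2390 calls, in place of 2154 and 2546. The median spread between libraries was wider for members with a mean under 100 counts, and whether more depth would change their calls was not tested.

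With the replicate block, 13 members passed as higher with A and 3 as higher with B, and the calls of Psma1 and Psma3 were lost (adjusted p 0.0687 and 0.0589). Over all genes, 2085 and 2476 passed. Among related genes 9 and 4 passed. Deviations of same-numbered libraries from their pool means correlated at 0.0409, -0.0195 and 0.02, so the shared numbers were not taken as pairs.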
